A study of Danio rerio with 4 samples.

Results

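Cartilage and bone genes other than collagens were described in Msp mutant and wild-type zebrafish. The genes were chosen by name, from the symbol or the older symbol given for each probe. Earlier results of these data were known at that time, so values over all genes are given beside them as context. They were the cartilage matrix genes matn1, matn4, hapln1a, hapln1b and cnmd, the bone matrix genes sparc and spp1, and the transcription factor genes sox9a, runx2b and runx3. All 10 of the 10 genes had a probe on the array, out of 27680 genes and unnamed probes with a value on all 4 arrays. Together they held 29 of the 43603 probes. Of these, 24 probes, which cover 9 of the genes, passed the filter on dim spots. The 5 others included both probes of runx2b.

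Macrophage stimulating protein (Msp) is a secreted ligand of the receptor tyrosine kinase Ron, and its zebrafish gene is mst1. RNA of whole embryos of the WIK strain was compared on 4 two-colour Agilent arrays. The 4 groups were wild type at 3 days post fertilization (dpf), Msp mutant at 3 dpf, wild type at 6 dpf and Msp mutant at 6 dpf. Each group was 1 pool of RNA from 30 embryos, raised at 28 °C in E3 medium and given no treatment. The labels name neither the mutant allele nor its zygosity. Both genotypes of a stage shared an array, and each stage was hybridised in both dye orientations. On array 1 of a stage the mutant carried Cy5, and on array 2 it carried Cy3. Both arrays of a stage were taken to hold the same RNA, which the labels do not say outright. On that reading the spread between them covers labelling and hybridisation, and it does not cover differences between clutches. With normalized signals of whole larvae, fewer cartilage or bone cells, less RNA per such cell and more RNA from other cells cannot be told apart.

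Cartilage of the larval head and fins is laid down by chondrocytes, which embed collagen fibrils and proteoglycans in a hydrated matrix. Matrilins connect fibrils to other matrix proteins, link proteins hold aggrecan on hyaluronan, and chondromodulin keeps blood vessels out of cartilage. The transcription factor Sox9 turns on the cartilage programme, whereas Runx2 drives hypertrophy of chondrocytes and the formation of bone cells. In zebrafish the head cartilages are present before most bones of the larva have mineralized.

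Whether the arrays carried the labelled difference was first read from mst1. Its probe gave log2 signals of 7.20 in wild type against 6.54 in the mutant at 3 dpf, and of 8.14 and 7.01 at 6 dpf. The mutant was lower on all 4 arrays, by a mean log2 ratio of -0.65 ± 0.06 at 3 dpf and -1.12 ± 0.16 at 6 dpf (SD, n = 2 arrays of each stage). Over both stages mst1 fell in limma (log2 -0.89, SE 0.12, adjusted p = 0.0415). Per array, 59.6% to 69.2% of probes were well above background in green and 73.5% to 74.8% in red, and no spot was saturated. Log2 signals below are means of the Cy3 and Cy5 channel of a pool after loess and Aquantile normalization, and they are compared between pools of the same probe only.

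The first comparison asked how the genes moved from 3 to 6 dpf. The cartilage matrix genes matn1, matn4, hapln1a and cnmd and the bone matrix gene sparc were all lower at 6 dpf in both genotypes and fell in limma. These are 5 of the 8 members that were above background at both stages. On the brightest probe of each gene, their decrease ran from 2.44-fold in sparc to 8.36-fold in hapln1a. Their dimmer probes fell less, down to 1.4-fold on a sparc probe that was not called. None of the 8 rose, and sox9a, runx3 and spp1 were not called. hapln1b was fitted through its 3 dpf signal alone, and is given apart. A call required an adjusted p under 0.05 and a log2 change of at least 1, in a fit with terms for stage and genotype over 4 pools. Among all 19474 genes fitted, 10.2% were called by this rule, with 5.42% that fell and 4.79% that rose. These shares include genes above background in only some of the pools, unlike the 8 members. The median log2 change of the 9 fitted members, hapln1b included, was -1.28, beside 0.006 over all genes. The fit has 1 residual degree of freedom, with a variance moderated across genes. That residual is the difference between the stage change of wild type and that of the mutant. The stages never shared an array, so any difference between their arrays or clutches falls into the stage change. The adjusted p-values do not cover it.

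**Figure D1:**
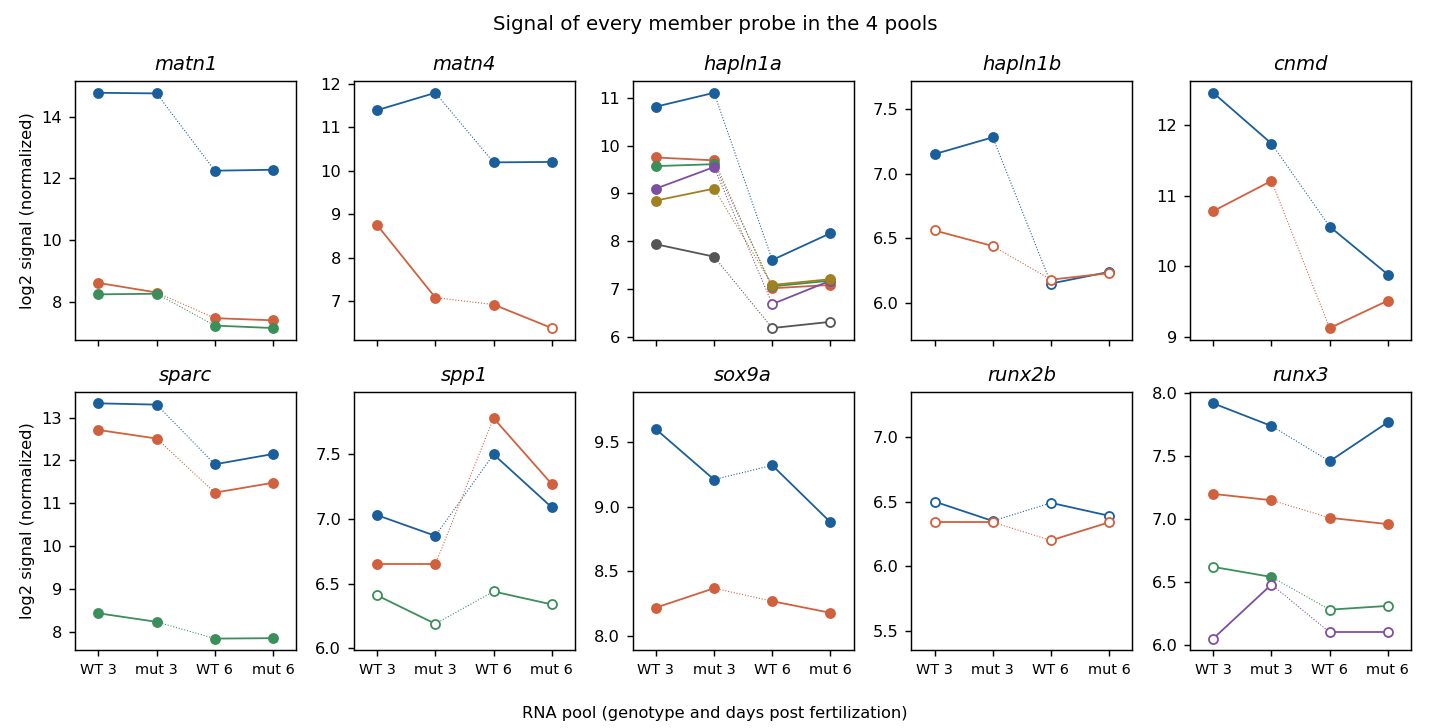
Normalized log2 signal (vertical axis, a scale of its own in each panel) of every member probe in the 4 RNA pools, each the mean of its Cy3 and Cy5 channel, with 1 colour per probe of a gene and open points where the pool was not well above background on both arrays. The 6 dpf points of the matn1, hapln1a, cnmd and sparc probes lie below their 3 dpf points, and both runx2b probes have open points in all 4 pools.

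matn1 encodes matrilin 1, the cartilage matrix protein. Its brightest probe stood at log2 signals of 14.77 in wild type against 14.75 in the mutant at 3 dpf, and at 12.25 and 12.28 at 6 dpf. Both 3 dpf pools were far above both 6 dpf pools, and the genotypes of a stage were close to each other. The signal fell by 2.49 on the log2 scale (SE 0.07, limma adjusted p = 1.9e-05), which is 5.63-fold. The change was -2.53 within wild type and -2.46 within the mutant. Both other matn1 probes were dimmer and fell less, with log2 changes of -1.02 and -1.05. They were between 7.16 and 8.62 in all pools.

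matn4 encodes matrilin 4, a member of the same family. Its brightest probe stood at 11.39 in wild type against 11.79 in the mutant at 3 dpf, and at 10.19 and 10.20 at 6 dpf. The mutant was the higher pool at 3 dpf. At 6 dpf the means of the genotypes nearly coincided, although the log2 ratios of the arrays were of opposite sign (-0.31 and 0.34). The signal fell by 1.40 (SE 0.11, limma adjusted p = 0.000176), or 2.64-fold. The second matn4 probe fell by 1.27 in the fit over probes (limma adjusted p = 0.00381). Its change was -1.83 within wild type and -0.70 within the mutant, whose pool was already low at 3 dpf.

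hapln1a and hapln1b encode link proteins of the hyaluronan and proteoglycan network. The brightest hapln1a probe stood at 10.81 in wild type against 11.10 in the mutant at 3 dpf, and at 7.61 and 8.17 at 6 dpf. Stages did not overlap, and the mutant was higher at each of them. With a log2 change of -3.06 (SE 0.09, limma adjusted p = 1.9e-05), hapln1a had the largest decrease of the 8 members above background at both stages, at 8.36-fold. All 6 hapln1a probes fell, by log2 changes between -3.06 and -1.56. The dimmest of them was not well above background in any channel at 6 dpf. It was kept for its 3 dpf signal, so its call is no support for a change. For that probe the mean log2 signal of 7.81 at 3 dpf was 2.82-fold above a floor for 6 dpf, where the measured mean was 6.25. The floor is the lowest signal seen among probes well above background on each 6 dpf array, or the probe's own signal where that is higher. It is not a limit of detection, since some signals above it were not well above background. The hapln1a probe A_15_P104671, for example, had 6.76 in wild type on 6 dpf array 1 without being well above background.

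The hapln1b probe that passed the filter stood at 7.15 in wild type against 7.28 in the mutant at 3 dpf, and at 6.15 and 6.24 at 6 dpf. It was well above background in all channels at 3 dpf and in none at 6 dpf, so it entered the fit through the 3 dpf pools alone. The level at 3 dpf, a mean of 7.22, was 1.95-fold above the floor for 6 dpf, where the measured mean was 6.20. The probe also passed the stage call in limma (adjusted p = 0.000135). It had to be high at 3 dpf to be fitted, so neither this call nor the distance from the floor is support for a change. The call was lost without background subtraction and without array 1 of either stage. The other hapln1b probe was too dim to be fitted.

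cnmd encodes chondromodulin, a membrane-anchored protein of cartilage, and both of its probes carry the older symbol lect1. The brighter probe stood at 12.46 in wild type against 11.74 in the mutant at 3 dpf, and at 10.56 and 9.88 at 6 dpf. The dimmer probe stood at 10.78 and 11.21 at 3 dpf and at 9.12 and 9.51 at 6 dpf. In both probes the 6 dpf pools were below both 3 dpf pools, although the probes ordered the genotypes in opposite ways. The brighter probe fell by 1.88 (SE 0.07, limma adjusted p = 3.5e-05), or 3.67-fold. The dimmer one fell by 1.68 in the fit over probes (limma adjusted p = 1.7e-05).

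sparc encodes osteonectin, a collagen-binding glycoprotein of bone, skin and other connective tissue. Its brightest probe stood at 13.33 in wild type against 13.30 in the mutant at 3 dpf, and at 11.91 and 12.15 at 6 dpf. Stages did not overlap, and the signal fell by 1.28 (SE 0.09, limma adjusted p = 0.000136), or 2.44-fold. A second probe fell by 1.24 in the fit over probes (limma adjusted p = 0.000185). The third, between 7.85 and 8.44 in all pools, had a log2 change of -0.49 and did not reach the threshold.

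spp1 encodes osteopontin, an acidic matrix protein of bone that macrophages and other cells make too. It was the only measured member whose brightest probe was higher at 6 dpf. That probe stood at 7.03 in wild type against 6.87 in the mutant at 3 dpf, and at 7.50 and 7.09 at 6 dpf. The pools were close, with the 6 dpf mutant only just above the 3 dpf wild type. The log2 difference of 0.35 (SE 0.09, limma adjusted p = 0.0156) was below the threshold of 1. A second spp1 probe stood at 6.65 in both genotypes at 3 dpf, and at 7.78 in wild type against 7.27 in the mutant at 6 dpf. Both 6 dpf pools exceeded both 3 dpf pools on it, with a log2 difference of 0.88 (limma adjusted p = 0.00124, fit over probes) that again missed the threshold. The third spp1 probe was above background in 1 of 8 channels and was not fitted.

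Of the transcription factor genes, sox9a, one of both zebrafish copies of SOX9, stood at 9.60 in wild type against 9.21 in the mutant at 3 dpf, and at 9.32 and 8.88 at 6 dpf on its brightest probe. Stages overlapped, since the 6 dpf wild type was above the 3 dpf mutant. The log2 difference between stages was -0.31 (SE 0.07, limma adjusted p = 0.0122), below the threshold. The other sox9a probe differed by -0.07 between stages. runx3, which in mice is needed with Runx2 for chondrocytes to mature and which also acts in blood cells, stood at 7.92 in wild type against 7.74 in the mutant at 3 dpf, and at 7.46 and 7.77 at 6 dpf. The pools overlapped between stages, with a log2 difference of -0.21 (SE 0.12, limma adjusted p = 0.192). Both other fitted runx3 probes differed by -0.19 and -0.28, the latter on a probe above background at 3 dpf alone.

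runx2b, one of both zebrafish copies of the bone factor gene RUNX2, could not be measured at this signal. Its first probe stood at 6.50 in wild type against 6.35 in the mutant at 3 dpf, and at 6.49 and 6.39 at 6 dpf, and was well above background in 1 of 8 channels. The second stood between 6.20 and 6.34 in the 4 pools and was above background in 2 of 8 channels. These values have no order between pools.

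**Figure D2:**
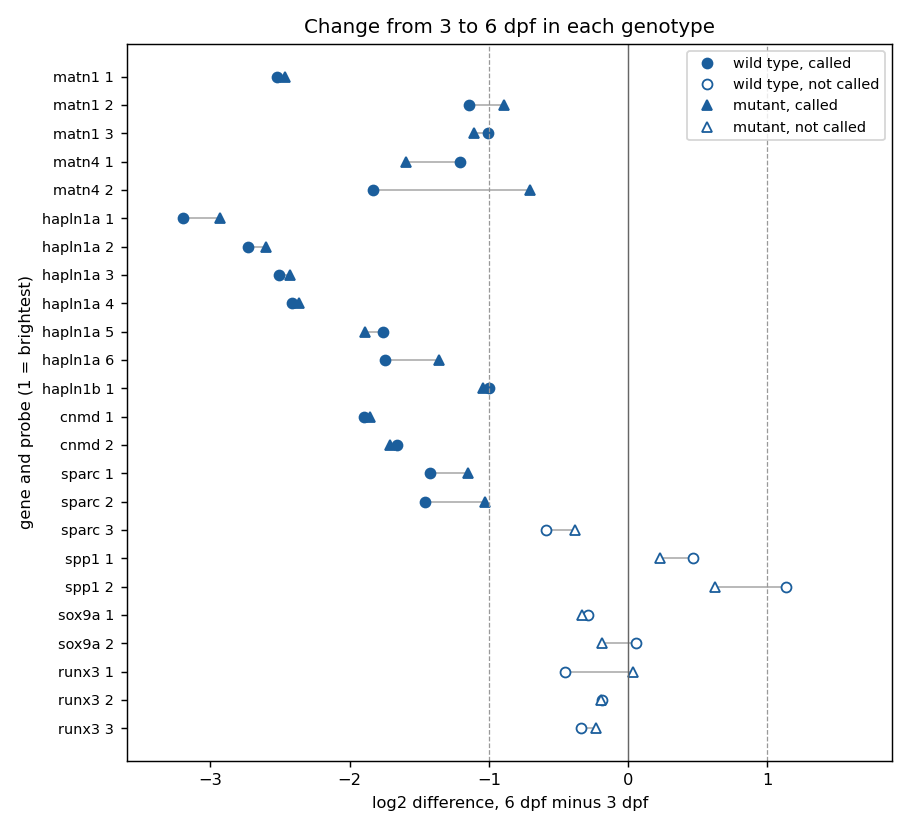
Log2 difference of 6 dpf minus 3 dpf (horizontal axis) of every fitted member probe, with circles for wild type, triangles for the mutant, filled points for probes called by limma and dashed lines at the threshold of 1. All 6 hapln1a probes lie beyond the threshold on the low side in both genotypes, whereas the sox9a and runx3 probes stay between -0.46 and 0.06.

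Counted over probes, 16 of the 24 fitted member probes fell and 0 rose. Among all 31045 probes fitted, 10.1% were called, with 5.49% that fell and 4.62% that rose. The 16 include the hapln1b probe and the dimmest hapln1a probe, which were at background at 6 dpf. Both were kept for their 3 dpf signal, so their calls are no support for a change. With signal well above background asked for in all pools, 12 member probes were called. The 8 of the 24 without a call were the probes of sox9a, runx3 and spp1 and the dimmest probe of sparc. Lower at 6 dpf in both genotypes were 20 of the 24. The share of all fitted probes with this direction was not counted, so the 20 cannot be set beside it. They include the hapln1b probe, the dimmest hapln1a probe and the dimmest fitted runx3 probe, which were above background at 3 dpf alone. Probes assigned to 1 gene are not independent, and no probe was placed on a transcript here.

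The second comparison asked whether the mutant differed from wild type. Of the members, only cnmd passed the limma test over both stages, with a lower signal in the mutant on its brighter probe and a higher one on its dimmer probe. On the brightest probe of each gene, matn1 had nearly equal signals in both genotypes. There hapln1a was higher in the mutant and sox9a and spp1 lower without passing the test. Over their fitted probes, the log2 differences ran from -0.07 to 0.47 in hapln1a and from -0.41 to 0.03 in sox9a. The probes of matn4 differed by 0.21 and -1.11, and neither passed. Of the 9 members fitted, 1 fell and 0 rose. Among all genes 1.04% were called, with 0.596% that fell and 0.447% that rose. This fit took the mean ratio of each stage as 1 value, so its 2 values are the stages, with 1 residual degree of freedom. The spread between the dye-swapped arrays of a stage does not enter its SE or p-values. With 1 pool per genotype and stage, differences between clutches were not measured apart from genotype. An unadjusted p under 0.05 was reached by 4 members, namely cnmd, sox9a, hapln1a and spp1, and by 13.5% of all genes. The median log2 ratio of the 9 was -0.03 at 3 dpf and 0.03 at 6 dpf, beside 0.015 and 0.008 over all genes.

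**Figure D3:**
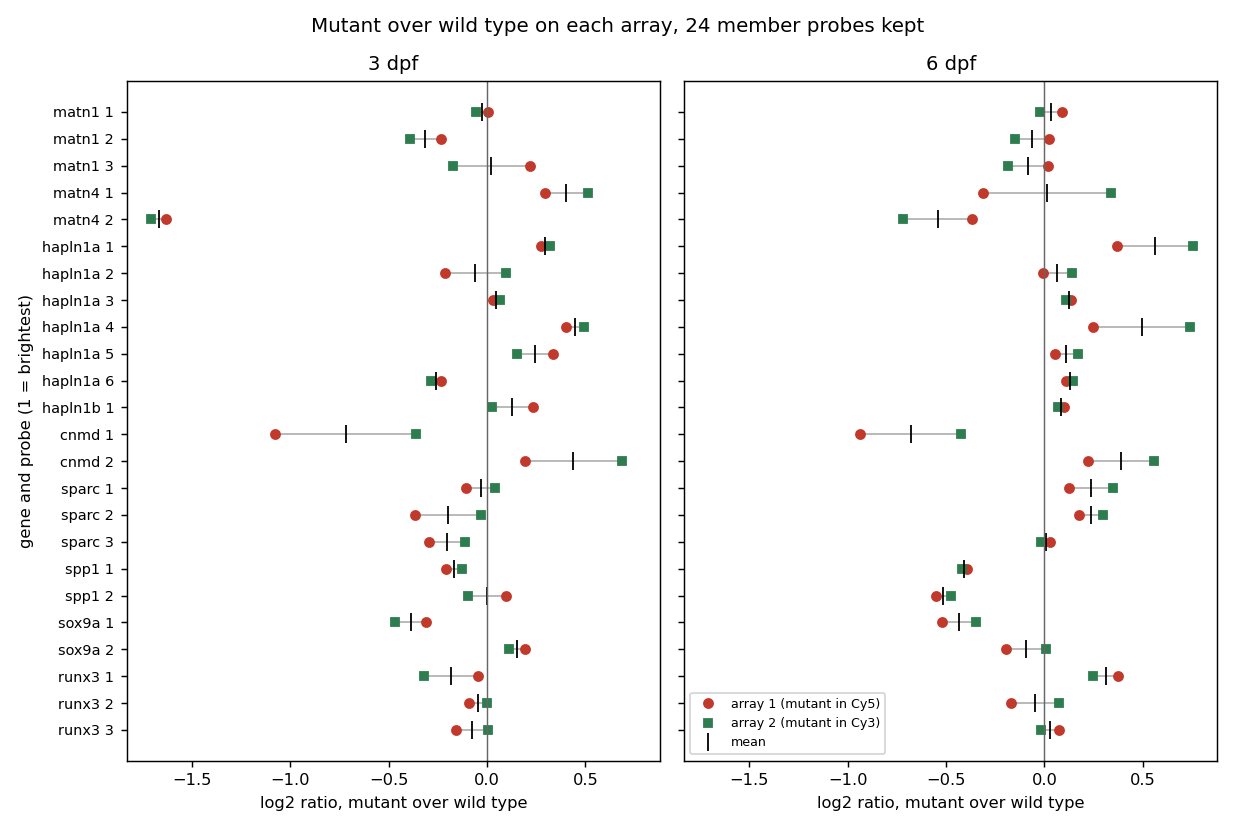
Log2 ratio of mutant over wild type (horizontal axis) of every fitted member probe at 3 dpf and at 6 dpf, with circles for array 1 (mutant in Cy5), squares for array 2 (mutant in Cy3) and a bar at their mean. The cnmd probes lie on opposite sides of 0 on all 4 arrays, and the dimmer matn4 probe lies at -1.63 and -1.71 at 3 dpf.

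On the brighter cnmd probe (A_15_P104030) the mutant's log2 ratio to wild type was -1.08 on array 1 and -0.36 on array 2 at 3 dpf, and -0.94 and -0.42 at 6 dpf. The mutant was lower on all 4 arrays, and more so on the arrays where it carried Cy5. The mean was -0.72 ± 0.51 at 3 dpf and -0.68 ± 0.36 at 6 dpf (SD, n = 2 arrays of each stage). Over both stages cnmd fell by 0.70 on this probe (SE 0.07, limma adjusted p = 0.0194), which is 1.62-fold. That SE rests on a variance moderated across genes as well as on the closeness of both stage means. At 0.072 it was the same as for sox9a and hapln1b, so it is no measure of cnmd alone. It leaves out the SD between arrays.

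On the dimmer cnmd probe (A_15_P105289) the arrays gave 0.19 and 0.68 at 3 dpf, then 0.22 and 0.56 at 6 dpf. The mutant was higher on all 4 arrays, so the probes assigned to this gene disagreed in sign on each array. Which part of the gene's transcripts either probe reads was not analysed here. The mean was 0.44 ± 0.35 at 3 dpf and 0.39 ± 0.24 at 6 dpf, and the log2 difference of 0.41 over both stages gave a limma adjusted p of 0.0599 in the fit over probes. On this probe too, the ratio was lower where the mutant carried Cy5, by 0.49 at 3 dpf and 0.34 at 6 dpf, against 0.72 and 0.51 on the brighter probe. With the mean of both probes the cnmd ratio was -0.14 (limma adjusted p = 0.413). Without array 1 of 3 dpf it was -0.52 (adjusted p = 0.0512), and without array 1 of 6 dpf -0.57 (adjusted p = 0.0569), so the limma call was lost in each of these 3 settings. The means of -0.72 and -0.68 hold both dye orientations equally, whereas leaving out an array leaves that stage with 1 orientation.

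The probes of matn4 disagreed as well. On the brighter one (A_15_P161906) the arrays of 3 dpf gave 0.29 and 0.51, and those of 6 dpf gave -0.31 and 0.34. The mutant was higher on both 3 dpf arrays, and the sign followed the dye at 6 dpf. Over both stages the difference was 0.21 (SE 0.11, limma adjusted p = 0.473). On the dimmer probe (A_15_P180006) the arrays of 3 dpf gave -1.63 and -1.71, and those of 6 dpf gave -0.37 and -0.72. The mutant was lower on all 4 arrays there, by a mean of -1.67 ± 0.05 at 3 dpf, which is 3.18-fold, and of -0.54 ± 0.25 at 6 dpf. Its pools stood at 8.75 in wild type against 7.08 in the mutant at 3 dpf, and at 6.92 and 6.38 at 6 dpf. The last value was well above background on 1 of 2 arrays. Over both stages the probe differed by -1.11 (limma adjusted p = 0.0971, fit over probes). It passed the test in 5 of 10 settings, with differences between -2.04 and -0.96 and adjusted p between 0.00245 and 0.164. The brighter probe passed in 0 of 11.

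A rule of size was applied within each stage, where 1 pool per genotype allows no test. It asked for a mean log2 ratio of at least 1, with at least 0.5 on each array in the same direction and signal above background in the higher genotype. It was met by 0.313% of all genes at 3 dpf and 0.514% at 6 dpf, and by 0 of the 9 members at either stage. Among probes, 0.303% met it at 3 dpf and 0.49% at 6 dpf. The dimmer matn4 probe at 3 dpf was the only member probe to do so.

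hapln1a had ratios of 0.27 and 0.32 at 3 dpf and of 0.37 and 0.76 at 6 dpf on its brightest probe. The mutant was higher on all 4 arrays, and the difference over both stages was 0.43 (SE 0.09, limma adjusted p = 0.118). Without array 2 of 3 dpf it was 0.42 with an adjusted p of 0.0446. A second hapln1a probe (A_15_P104671) had ratios of 0.40 and 0.49 at 3 dpf and of 0.25 and 0.74 at 6 dpf. That probe rose in the fit over probes (log2 0.47, limma adjusted p = 0.0419). It missed the threshold when no background was subtracted (adjusted p = 0.0639), with Agilent's processed signals (0.225) and without array 2 of 6 dpf (0.237). Its 6 dpf wild-type signal was above background on 1 of 2 arrays. The other 4 hapln1a probes had differences of 0.18, 0.09, 0.003 and -0.07, so that the higher signal of the mutant was seen on some of the probes. Of all member probes fitted, 1 rose (this one) and 1 fell (the brighter cnmd probe), while 1.55% of all probes were called, with 0.673% that rose and 0.873% that fell. The hapln1b probe differed by 0.11 (limma adjusted p = 0.581).

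For matn1, the ratios of the brightest probe lay between -0.06 and 0.09 on the 4 arrays. The difference over both stages was 0.003 (SE 0.07, limma adjusted p = 0.99), and both other probes had -0.19 and -0.03. The brightest sparc probe differed by 0.10 (limma adjusted p = 0.683). Its arrays gave -0.11 and 0.04 at 3 dpf, then 0.13 and 0.35 at 6 dpf, so the mutant was above wild type on both arrays at the later stage alone.

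spp1 had ratios of -0.21 and -0.13 at 3 dpf and of -0.39 and -0.42 at 6 dpf on its brightest probe. The mutant was lower on all 4 arrays, with a difference of -0.29 over both stages (SE 0.09, limma adjusted p = 0.239). Its second probe had ratios of 0.10 and -0.10 at 3 dpf and of -0.55 and -0.47 at 6 dpf. There the mutant was lower at 6 dpf, and at 3 dpf the sign changed with the dye. In this dim range the size depends on the background step, and Agilent's processed signals gave a 6 dpf ratio of -0.95 for the brightest probe.

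sox9a had ratios of -0.31 and -0.47 at 3 dpf and of -0.52 and -0.35 at 6 dpf on its brightest probe. The mutant was lower on all 4 arrays, and the difference over both stages was -0.41 (SE 0.07, limma adjusted p = 0.0742). Its other probe had 0.19 and 0.11 at 3 dpf and -0.19 and 0.01 at 6 dpf, with a difference of 0.03 over both stages. The sox9a probes thus disagreed in size, and at 3 dpf in sign. runx3 had -0.05 and -0.32 at 3 dpf and 0.38 and 0.25 at 6 dpf on its brightest probe. On that probe the mutant was lower at the earlier stage and higher at the later one. The mean of 0.06 over both stages (SE 0.12, limma adjusted p = 0.876) hides that change of sign. The next brightest runx3 probe had mean ratios of -0.045 at 3 dpf and -0.046 at 6 dpf. The dimmest fitted runx3 probe had -0.08 and 0.03.

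Other genes of the same tissues were counted from lists. The shares to set beside each list, here and below, are those over all 19474 genes fitted. Of these, 5.42% fell and 4.79% rose with stage, and 1.04% were called between genotypes by limma. No list was tested against these shares. Of 34 listed other cartilage matrix genes, 21 were fitted, and 6 fell and 0 rose from 3 to 6 dpf, with a median change of -0.21. The largest decreases were those of cthrc1a (-1.99), the versican gene vcanb (-1.77) and the lumican gene lum (-1.65). Between genotypes 1 of the 21 fell, the thrombospondin gene thbs3b (log2 -1.02, limma adjusted p = 0.0108, 1 probe). At 6 dpf, with -1.08, thbs3b also met the rule of size. The median ratio of this list was -0.08 at 3 dpf and 0.09 at 6 dpf.

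Of 41 listed chondrocyte regulators, 31 were fitted, and 3 fell and 0 rose with stage (median -0.26). They were the transcription factor genes barx1 (-2.39), dlx4a (-1.67) and hand2 (-1.27), which pattern the pharyngeal arches. None of the 31 was called between genotypes by limma. The Indian hedgehog gene ihha was farthest from 0 among them (log2 -0.32, limma adjusted p = 0.181). The median ratios were 0.02 at 3 dpf and 0.08 at 6 dpf.

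The bone cell and mineralization list had 23 of 38 genes fitted, with 3 that fell and 2 that rose with stage (median -0.30). The periostin gene postnb (-2.14) and the osteoblast membrane protein gene ifitm5 (-1.70) fell, and ankha (1.23), a homologue of the pyrophosphate exporter gene ANKH, rose. Between genotypes 0 of the 23 were called by limma, and scpp5 was farthest from 0 (0.58, limma adjusted p = 0.125). The median ratios were 0.04 at 3 dpf and 0.06 at 6 dpf. For osteoclasts, which resorb bone, 10 of 15 listed genes were fitted and 0 were called in either comparison by limma. The stage value farthest from 0 was that of the acid phosphatase gene acp5b (0.77), and the genotype value farthest from 0 that of the cathepsin K gene ctsk (-0.36, limma adjusted p = 0.206). The list's medians were -0.13 between stages, 0.08 between genotypes at 3 dpf and -0.02 at 6 dpf.

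Of 41 listed genes of glycosaminoglycan synthesis and collagen secretion, 32 were fitted, and 8 fell and 0 rose with stage (median -0.32). They included the lysyl hydroxylase gene plod1a (-1.93, with the same sign on 3 of 4 probes), the prolyl hydroxylase gene lepre1 (-1.64) and papss2b (-1.60), which makes the sulfate donor for proteoglycans. None was called between genotypes by limma. The chaperone gene of collagen, serpinh1b, was farthest from 0 (0.25, limma adjusted p = 0.526), and the median ratios were -0.02 at 3 dpf and -0.03 at 6 dpf. Of 16 fitted collagens of cartilage and bone, from 20 listed, 15 fell and 0 rose with stage (median -1.71), led by col9a1b (-2.36), col9a3 (-2.35) and col11a2 (-2.21). None of the collagens was called between genotypes by limma, where col10a1a was farthest from 0 (0.60, adjusted p = 0.261, with 0.17 at 3 dpf and 1.04 at 6 dpf, where it met the rule of size) and the medians were -0.03 at 3 dpf and 0.10 at 6 dpf.

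**Figure D4:**
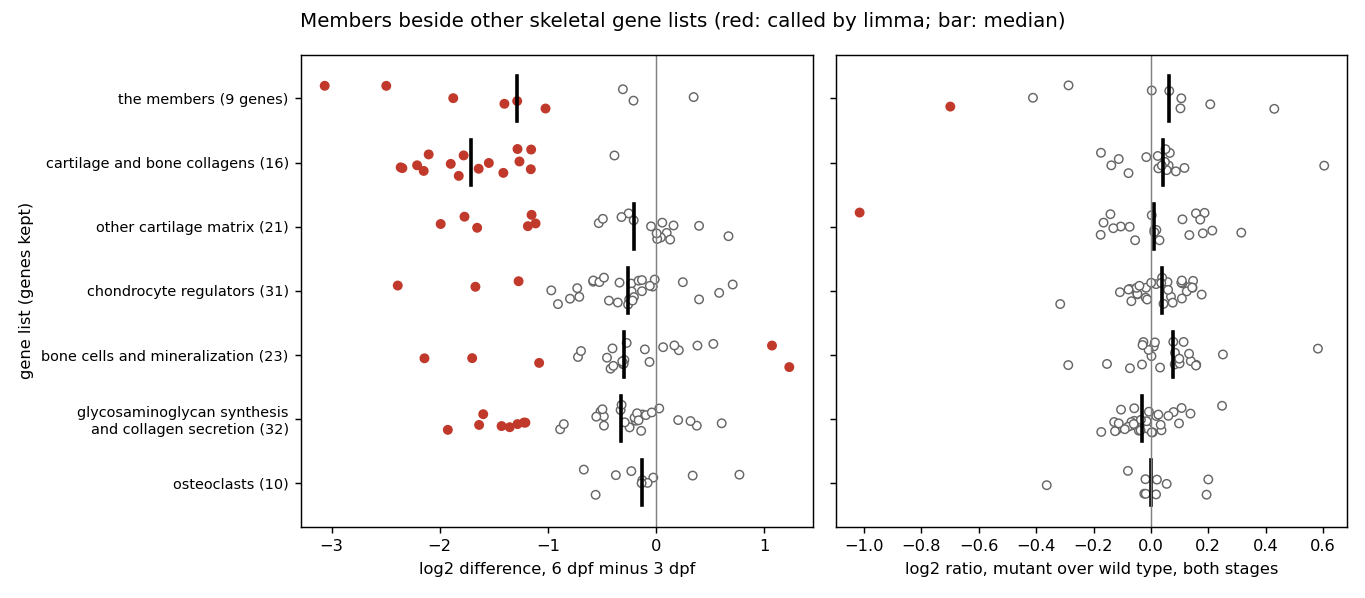
Log2 difference of 6 dpf minus 3 dpf (left) and log2 ratio of mutant over wild type over both stages (right) of each fitted gene of the members and of 6 lists of related genes, with red points called by limma and a bar at each median. At left the members (median -1.28) and the collagens (median -1.71) lie farther to the low side than the other lists, whose medians are between -0.32 and -0.13, and at right cnmd and thbs3b are the called genes.

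Several members are also made outside cartilage and bone, so markers of other cells were read from lists too. The genes postnb, csf1ra and runx1 stand in these lists as well as in those above, and were counted in both. For notochord, 9 of 10 listed markers were fitted, of which 3 fell with stage (cmn -1.30, shhb -1.09, col8a1a -1.02) and 0 were called between genotypes by limma. Their summed linear signal was 8347 in wild type against 7414 in the mutant at 3 dpf, and 5552 and 5916 at 6 dpf. Such a sum, here and for the lists below, weighs the brightest genes most. The medians were -0.34 between stages and -0.08 and 0.03 between genotypes at 3 and 6 dpf, and col8a1a was farthest from 0 between genotypes (-0.76, limma adjusted p = 0.0765). At 3 dpf, with -1.035, col8a1a met the rule of size. For fin fold and dermal fibroblasts, 8 of 12 were fitted and 5 fell with stage, among them the actinodin gene and1 (-2.33), postnb and fbln1 (-1.16, with the same sign on 1 of 3 probes). Their median was -1.04 between stages and -0.09 and 0.12 between genotypes at 3 and 6 dpf. In this list 1 gene fell between genotypes, the actinodin gene and2 (-0.50, limma adjusted p = 0.0481). Their summed signal was 23095 in wild type against 19424 in the mutant at 3 dpf, and 8128 and 7539 at 6 dpf. The part of these cells in the decrease of the members was not tested.

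Macrophage markers, of which 8 of 11 were fitted, had 1 gene that rose with stage (cd74a, 1.36) and a median of 0.36. Their summed signal was 6902 in wild type against 6301 in the mutant at 3 dpf, and 11555 and 12364 at 6 dpf. The sum was higher at 6 dpf, and so were cd74a, cd74b (0.93), apoeb (0.91) and spi1b (0.70), while mpeg1.1 differed by 0.02, mpeg1.2 by -0.04 (log2), csf1ra by -0.23 and cxcr3.2 by -0.10. The part of macrophages in the spp1 signal was not tested. Between genotypes none was called by limma, the medians were 0.05 at 3 dpf and 0.22 at 6 dpf, and mpeg1.2 was farthest from 0 (0.54, limma adjusted p = 0.158). Glial markers had 8 of 9 fitted, with 1 that rose (glula, 1.17) and 1 that fell (fabp7a, -1.82), a stage median of -0.17 and genotype medians of 0.05 and 0.26 at 3 and 6 dpf. Their summed signal was 78492 in wild type against 80089 in the mutant at 3 dpf, and 30661 and 38553 at 6 dpf. The lower sum at 6 dpf does not describe the list as a whole. Apart from fabp7a, the stage values ran from -0.475 (gfap) to 1.17 (glula).

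Lymphoid and blood progenitor markers, of which 7 of 11 were fitted, had 0 calls in either comparison by limma. Their medians were -0.03 between stages and 0.07 and -0.01 between genotypes at 3 and 6 dpf, with il7r farthest from 0 between genotypes (0.14, limma adjusted p = 0.502) and myb between stages (-0.25). Of 8 inner ear and otolith markers 3 were fitted, with 0 calls by limma and medians of -0.68 between stages and 0.06 and 0.01 between genotypes. Between stages otomp was farthest from 0 (-0.70), and between genotypes stm (0.26, limma adjusted p = 0.233).

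The patterns most like those of matn1 and cnmd were looked up over the 4 pools, by the Euclidean distance of log2 signals centred on each gene's mean, among 11721 genes. For matn1 they were casq1a (distance 0.116), ccnb1 (0.128), hbbe3 (0.151), cd276 (0.151) and manf (0.164). None of these is a gene of the lists above. For the brighter cnmd probe they were cavin4b (0.298), anxa1b (0.36), tnnt3a (0.424), cavin4a (0.432) and rbp5 (0.455). The stage changes of the 5 genes nearest to matn1 lay between -2.60 and -2.43, and those nearest to cnmd lay between -2.20 and -1.65. Since the genes were picked on the same 4 pools, stage changes near those of matn1 and cnmd follow from the choice.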

How the data were processed

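RNA of whole WIK embryos was measured in 4 pools on 4 arrays of 1 slide, which leaves no slide effect to fit. Since the labels name a single RNA sample for each genotype and stage, the dye-swapped arrays were counted as 1 replicate, although the labels do not say outright that the extracts were the same.

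Per the file headers, the deposited scanner files were written by version 10.5.1.1 of Agilent's Feature Extraction (protocol GE2_105_Dec08), while 8.5.1.1 is the version in the submitters' processing notes. They hold spot and background intensity in green (Cy3) and red (Cy5), Agilent's processed intensity, which is background-subtracted and dye-normalized, and a log10 ratio of red over green, per the file headers. Probe positions refer to danRer 6 (Zv 8), per the file headers. In the deposited series table the columns of 3 dpf array 2 and 6 dpf array 1 matched the log2 ratio of their own array, and that of 6 dpf array 2 matched the log2 ratio averaged over both 6 dpf arrays. The deposited column of 3 dpf array 1 was left aside as a score of unknown order, because its correlation with its array was 0.00288. All columns had a median of 0.

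An array carried 1417 control spots among its 45220 spots, and 5 to 25 outlier spots were left out per array. Median signals were 146.5 to 154 in green over a background of 47.5 to 49, and 167 to 187 in red over 87 to 87.5. Genes were named by accession (25173 probes), symbol (3615) or older symbol (1280) in the reference tables, or by the file's own symbol (5277), and 8258 probes had no name. Through these, cnmd matched as lect1 and spp1 by an accession. The reference tables use another assembly, so no coordinates are given.

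Spot signals were background corrected with normexp (offset 50), normalized by loess within arrays and Aquantile between them, in R 4.3.3 with limma 3.58.1. Tables came from pandas 2.3.3 and numpy 2.4.6 under Python 3.11.15, and figures from matplotlib 3.10.9. A probe was kept if at least 1 pool had it well above background in both dyes, and the brightest probe stood for a gene. Limma tested the mean ratios of both stages against 0, and 6 against 3 dpf over 4 pools with genotype as a term, with Benjamini-Hochberg adjustment over all 19474 genes or, in a separate fit, over all 31045 probes. The fits were tested on simulated data. With 1 pool per genotype and stage, the number of pools limits the precision.

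The members and the lists were chosen with earlier results of these data known. All members are named with their probes. From each list, up to 3 genes called by limma with the largest change are named, or, where none was called, the gene farthest from 0. The 5 nearest patterns are named for matn1 and cnmd. There were 11 alternatives, on background, normalization, filter, choice of probe and left-out arrays, and the ratios of a single stage were also set beside the deposited table.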

Additional observations from a re-analysis of the deposited data

Results flagged for a closer look

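In 3 member probes the mutant was below wild type on both arrays of 3 dpf and above it on both arrays of 6 dpf, and with 1 pool per genotype and stage this difference was not tested. The ratio at 6 dpf minus that at 3 dpf was 0.495 log2 units for the brightest runx3 probe, 0.436 for the second sparc probe and 0.387 for the dimmest hapln1a probe. That hapln1a probe was not well above background at 6 dpf, so its later ratio has no order. The brightest sparc probe had the same direction at 6 dpf and arrays of both signs at 3 dpf. Both other fitted runx3 probes had ratios within 0.17 of 0 on all 4 arrays.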

How the results depend on the processing

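The stage calls depended little on the processing, and the genotype calls depended on it strongly. The size of a stage change on dim probes depended on the background step. With Agilent's processed signals it was -3.12 for hapln1b and -4.61 for the dimmest hapln1a probe, against -1.02 and -1.56 in the main fit. For the brightest matn1 probe it was -2.465 against -2.49. The counts of 6 members and 16 member probes called with stage stayed within 1.5 times under every alternative tried. hapln1b lost its call in 3 of them and, with signal asked for in all pools, was not fitted, which left 5 members. In that setting 12 probes were called. The probes of the 16 that were then not fitted were that of hapln1b, the dimmest hapln1a probe, the hapln1a probe A_15_P104671 and the dimmer matn4 probe. Of members called between genotypes there was 1, against 0 with Agilent's processed signals, 0 with the mean of all probes and 2 (cnmd and sox9a, adjusted p = 0.0466) with no filter on dim probes. Leaving out 1 array gave 0 to 2, namely 0 without array 1 of either stage and 2 without array 2 of 3 dpf. Of member probes called there were 2, against 1 without background subtraction, 0 with Agilent's signals, 5 with no filter and 1 with signal above background asked in all pools, and 1 to 5 with an array left out (5 if it was array 1 of 3 dpf, 1 if it was array 2 of 6 dpf). The size rule at 3 dpf was met by 0 members, and by 0 to 1 with an array left out (1 without array 2 of 3 dpf). Among all genes, 203 genotype calls became 27 with Agilent's signals, 399 with no filter, 337 if array 1 of 3 dpf was left out and 647 if array 2 was. The 1989 stage calls became 4358 with Agilent's signals. The size rule took 61 genes at 3 dpf and 100 at 6 dpf, which became 109 and 167 with an offset of 10 and 283 and 333 with Agilent's signals, and at 3 dpf 37 with the mean of probes and 104 without array 2. The cause was not tested.

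The genotype values of matn1 and runx3, which were near 0, and that of matn4 changed sign, and none of them was called. matn1 had -5.43e-05 without background subtraction, -0.068 with median centring and -0.072 with the mean of probes, and -0.0253 to 0.0317 with an array left out. With the mean of probes matn4 went from 0.21 to -0.45, where the mean takes in its dimmer probe (-1.11). runx3 had -0.00167 with the mean of probes, and -0.00429 to 0.133 with an array left out. The cnmd value lay between -0.88 and -0.14 over the 11 alternatives, with adjusted p from 0.00012 to 0.413 and -0.73 (adjusted p = 0.136) with Agilent's signals. Its brighter probe was called in 9 of 11 settings and its dimmer one in 2. Without array 1 of 6 dpf the second spp1 probe became the brightest and rose with stage (1.02, adjusted p = 0.000405). Both genotypes of a stage shared each array, so the genotype ratios were paired by array already. Dim probes limit spp1, runx2b, runx3 and hapln1b.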
